A study of Mus musculus with 5 samples.

Results

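The integrated stress response genes described here are 10 genes read by their symbol from a count table of mouse tumours, namely Atf4, Ddit3, Trib3, Asns, Phgdh, Psat1, Shmt2, Mthfd2, Chac1 and Slc7a11. All 10 symbols were found among 54113 named entries of the table, and all 10 passed the filter on low counts, which left 16133 genes. The study asked how housing in the cold alters the metabolism of tumours. MC38 cells, a colon carcinoma line of C57BL/6 mice, were grown as tumours in C57BL/6 mice, and tumour RNA was sequenced from 3 samples kept at 30 °C (thermoneutral housing, the control) and 2 kept at 4 °C for 2 weeks. The methods describe an adaptation of C57BL/6 mice at an intermediate temperature before either housing temperature, followed by implantation. No other treatment or allele is given for either group. All tumours come from a single cell line, and the ages given in the methods are a range for all such experiments. The study calls the samples biological samples. The labels do not tie them to single mice, so p-values measure the spread between these 5 samples.

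Atf4 encodes a transcription factor whose mRNA is translated efficiently only when the initiation factor eIF2 is phosphorylated. The eIF2 kinases respond to amino acid shortage, unfolded protein in the endoplasmic reticulum, haem shortage and double-stranded RNA. Atf4 then switches on genes for amino acid synthesis, transport and tRNA charging, together with Ddit3 and Trib3, which limit growth or feed back on the response. Because control of Atf4 is largely translational, its targets are the usual transcript readout.

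Atf4 binds with C/EBP partners to a composite element, searched here as TGATGNAA on both strands of promoter windows from RefSeq (GRCm38.p6, 250 bases before to 50 after the gene start). The element was present for 4 of the 10 genes (40%), against 1219 of all 27025 genes with a window (4.51%). The stretches that hold it are shown because these 4 genes include those with the widest range between tumours. Each is written 5′ to 3′ along the gene, with the element in capitals.
Asns (chr6:7693210-7693258, minus strand): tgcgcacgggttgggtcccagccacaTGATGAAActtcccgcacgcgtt
Chac1 (chr2:119351023-119351082, plus strand): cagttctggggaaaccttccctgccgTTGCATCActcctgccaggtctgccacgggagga
Slc7a11 (chr3:50443627-50443705, minus strand): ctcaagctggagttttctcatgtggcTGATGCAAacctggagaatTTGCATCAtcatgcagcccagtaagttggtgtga
Trib3 (chr2:152344030-152344056, minus strand): tagctcaggtTTACATCAgccgggcgg
Counted from the RefSeq start, the element began at −23 in Asns, at −193 in Chac1 and at −66 and −47 in Slc7a11. In Trib3 it began at position 15, which is upstream of the gene start that GENCODE M21 places at 152344032. In Asns the GENCODE M21 start lies at 7693254, so the element is inside the transcribed stretch by that annotation. The windows of the other 6 genes did not contain these letters, which says nothing about elements elsewhere.

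The libraries held 16191708 to 20320525 counts on named genes, and 3 counts corresponded to 0.148 to 0.185 CPM (counts scaled to a library of 1000000). In 30 °C replicate 2, 25 pancreatic acinar genes took 27.5% of all counts (exact 95% interval 27.5% to 27.5%, counting error only), with 2686 CPM in 4 °C replicate 2 and 21.4 to 83.2 CPM in the other libraries. The 9 epithelial and colon carcinoma markers summed to only 19.4 to 125 CPM, with Cdx2 at 0 to 8 counts and Vil1 at 0 to 4, while 8 B cell genes reached 1319 to 3984 CPM and all 3 splenic mesenchyme genes were detected in every library. The tumour label was therefore not matched by abundant epithelial transcripts. In such bulk RNA, fewer cells of a type and less RNA per cell cannot be told apart.

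The amino acid stress genes were not uniform within the 30 °C group. In 9 of the 10 genes the highest level was in 30 °C replicate 1 (4 genes) or 30 °C replicate 2 (5 genes), whereas 38.4% of all genes tested peaked in these 2 libraries. In CPM without TMM scaling, again 9 of the 10 peaked in this pair (28.8% of all genes). Of these, 7 peaked in 30 °C replicate 1 and 2 (Phgdh and Chac1) in 30 °C replicate 2. Which of the pair was higher thus depended on scaling for Asns, Psat1 and Mthfd2. Unscaled, 30 °C replicate 2 had the lowest level of the 5 tumours for Atf4 (180 CPM), Ddit3 (14.8), Psat1 (65.6) and Shmt2 (106). Its place above the tumours at 4 °C in those genes came with TMM scaling (factor 0.738). The third tumour at 30 °C was close to the tumours at 4 °C in the 10 genes. Over all 16133 genes its log2 CPM was closest to 1 of them. It correlated at 0.990 with 4 °C replicate 1, the highest of the 10 pairs of libraries (the others 0.927 to 0.968). With 4 °C replicate 2 the correlation was 0.956, below its 0.963 with 30 °C replicate 1. Of the 10 genes, only Slc7a11 peaked outside the pair, in 4 °C replicate 1. Gene levels below are CPM after TMM scaling, which corrects for differences in library composition such as the acinar load. Sums over cell type lists are in unscaled CPM throughout.

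**Figure D1:**
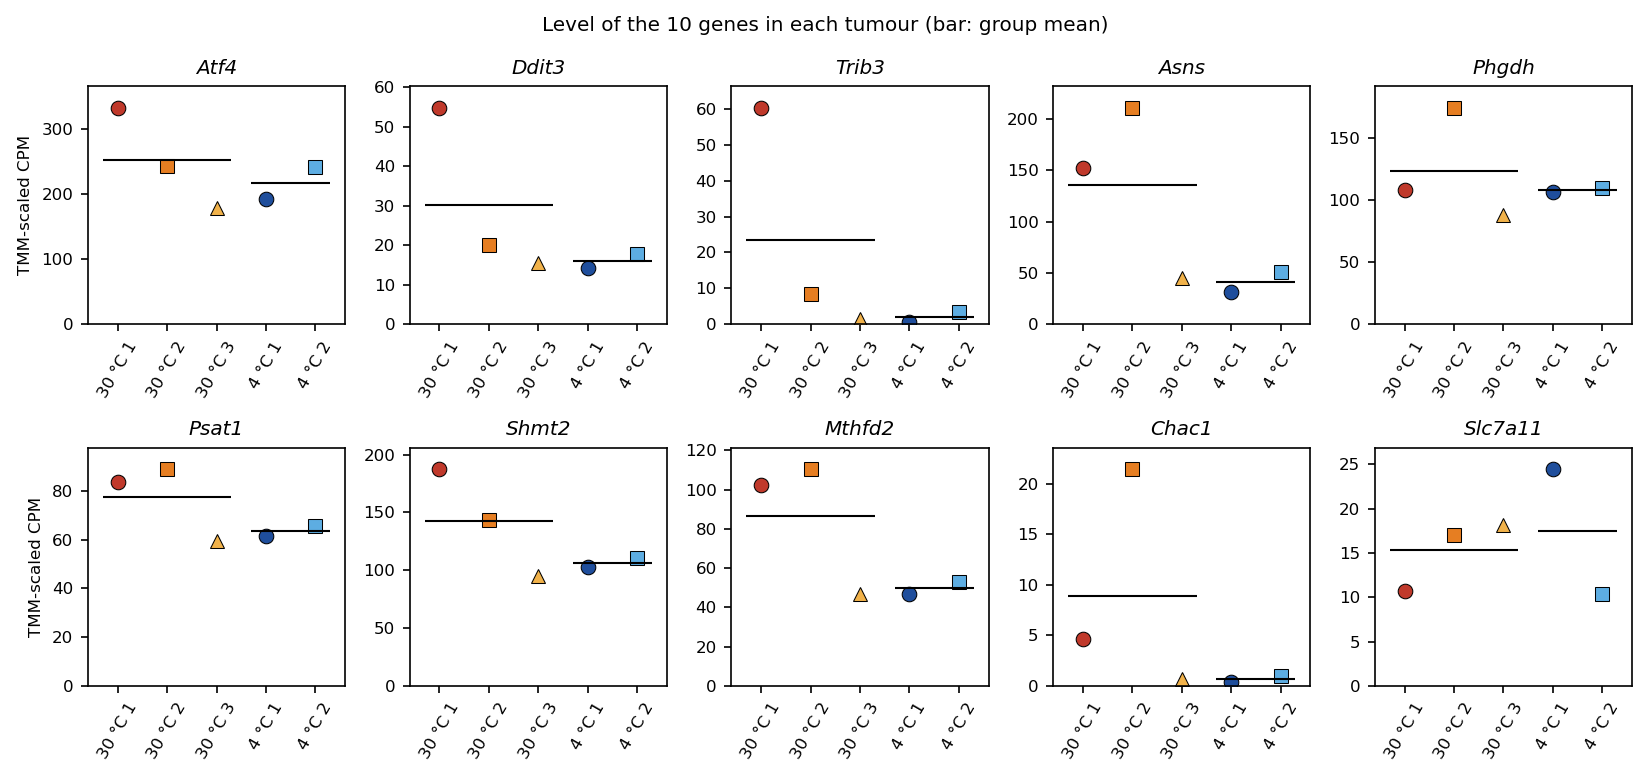
Level of each of the 10 genes (y axes, TMM-scaled CPM, each from 0) in the 5 tumours (x axes), with group means as bars. The 30 °C replicate 1 or 2 point is the highest in every panel but that of Slc7a11, and 30 °C replicate 3 lies near the 4 °C points.

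Among the regulators, Atf4 itself (chromosome 15, 80255184 to 80257541 on GRCm38) varied least. It stood at 333, 244 and 178 CPM in 30 °C replicates 1, 2 and 3 and at 193 and 242 CPM in 4 °C replicates 1 and 2. The groups overlapped, with the lowest value in 30 °C replicate 3. Atf4 averaged 252 ± 77.5 CPM (SD, n = 3) in the warm and 218 ± 34.9 CPM (SD, n = 2) in the cold, and the log2 fold change was −0.21 (95% interval −0.89 to 0.48, adjusted p = 0.91 by edgeR).

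Ddit3 encodes CHOP, a transcription factor induced downstream of Atf4 and linked to cell death under prolonged stress. Its levels were 54.8, 20.1 and 15.4 CPM at 30 °C and 14.1 and 17.9 CPM at 4 °C. A single tumour, 30 °C replicate 1, stood apart at 2.72 times the next highest, and the other 4 lay close together. The fitted log2 fold change between the groups was −0.91 (95% interval −2.30 to 0.47, adjusted p = 0.82 by edgeR). Without 30 °C replicate 1 it was −0.15. Exons of Ddit3 (chromosome 10, 127290774 to 127296288) overlap those of Mars and Gm4189 on the opposite strand, and the strand setting of the counting is not given. After TMM scaling Mars, the methionyl-tRNA synthetase, had 95.6 CPM in 30 °C replicate 1 and its peak of 107 CPM in 30 °C replicate 2. In unscaled CPM its peak was in 30 °C replicate 1, with 103 there and 78.9 to 86.2 in the other tumours. The part of this overlap in the Ddit3 levels was not tested.

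Trib3 encodes a pseudokinase induced by Atf4 and CHOP that dampens both. It had the widest range of the 10 genes, 86.6-fold between the highest and the lowest tumour. Levels were 60.3, 8.38 and 1.44 CPM at 30 °C and 0.696 and 3.41 CPM at 4 °C, from 1133, 102, 33, 14 and 57 counts. The group difference was −3.52 on the log2 scale, with an interval from −8.54 to 1.49 (adjusted p = 0.80 by edgeR). The value in 30 °C replicate 3 lay between the tumours at 4 °C, so the groups overlapped. Without 30 °C replicate 1 the log2 fold change was −1.24.

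Asns encodes asparagine synthetase, which makes asparagine from aspartate and glutamine and carries the element shown above, before the RefSeq start. It gave the smallest p-value of the 10 genes. Its levels were 152, 211 and 44.8 CPM at 30 °C and 31.3 and 50.9 CPM at 4 °C. The value of 44.8 CPM in 30 °C replicate 3 fell between those of the tumours at 4 °C. The means were 136 ± 84.2 CPM (SD, n = 3) and 41.1 ± 13.8 CPM (SD, n = 2), with a log2 fold change of −1.73 (95% interval −3.36 to −0.10, unadjusted p = 0.041, adjusted p = 0.72 by edgeR). Exocrine pancreas is known for high Asns expression, and the TMM-scaled peak was in the library with 27.5% acinar counts. In unscaled CPM, Asns stood at 164 in 30 °C replicate 1 and 155 in 30 °C replicate 2. Without that library the log2 fold change was −1.28, and with the acinar level as a covariate −1.45. In 30 °C replicate 1 the acinar genes summed to 83.2 CPM and Asns was at 3.40 times its level in 30 °C replicate 3. Beyond these fits, the part of acinar content in the Asns levels was not tested.

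The serine synthesis enzymes had narrow ranges, with the highest tumour at 1.99 times the lowest for Phgdh and closer still for Psat1. Phgdh, phosphoglycerate dehydrogenase, opens the pathway from the glycolytic intermediate 3-phosphoglycerate, and Psat1, the phosphoserine aminotransferase, follows it. Phgdh stood at 108, 174 and 87.6 CPM at 30 °C and at 106 and 110 CPM at 4 °C. Only 30 °C replicate 2 stood out, and the log2 fold change of −0.19 (95% interval −0.92 to 0.55, adjusted p = 0.93 by edgeR) became 0.13 without it. Psat1 had 83.9, 89.0 and 59.4 CPM at 30 °C against 61.6 and 65.7 CPM at 4 °C, a log2 fold change of −0.28 (95% interval −0.81 to 0.25, adjusted p = 0.85 by edgeR), which was −0.18 without 30 °C replicate 2 and −0.44 without 30 °C replicate 3. Its lowest value was again in 30 °C replicate 3, below both tumours at 4 °C.

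Shmt2 and Mthfd2 act in succession in mitochondria, where serine is cleaved to glycine and its carbon is oxidised on folate. Shmt2, the serine hydroxymethyltransferase, had 187, 144 and 95.3 CPM at 30 °C and 102 and 111 CPM at 4 °C. Mthfd2, a methylene-tetrahydrofolate dehydrogenase, had 102, 110 and 46.6 CPM at 30 °C and 46.8 and 53.1 CPM at 4 °C. For both genes, after TMM scaling, 30 °C replicates 1 and 2 were above every other tumour and 30 °C replicate 3 was the lowest. In unscaled CPM only 30 °C replicate 1 stood out for Shmt2 (201), and 30 °C replicate 2 was its lowest tumour (106, the others 107 to 114). Mthfd2 unscaled was still higher in 30 °C replicates 1 and 2 (110 and 81.3) than elsewhere (50.6 to 54.7). The log2 fold changes were −0.41 for Shmt2 (95% interval −1.12 to 0.29, adjusted p = 0.84 by edgeR) and −0.79 for Mthfd2 (95% interval −1.70 to 0.12, adjusted p = 0.76 by edgeR). Without 30 °C replicate 1 the value for Shmt2 was −0.16, and without 30 °C replicate 3 it was −0.63. Exons of Shmt2 overlap those of Ndufa4l2 on the opposite strand. Mthfd2 is known for high levels in dividing cells. In unscaled CPM summed over 6 cell division genes, the level was 1313 to 1475 in all 3 tumours at 30 °C and 805 to 886 at 4 °C. The highest unscaled sum was in 30 °C replicate 3. TMM scaling, whose factor was lowest in 30 °C replicate 2 (0.738), was not applied to this sum. The part of cell division in the Mthfd2 levels was not tested.

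The last pair concerns cysteine and glutathione. Chac1, an enzyme that breaks down glutathione, had 4.63, 21.4 and 0.655 CPM at 30 °C and 0.398 and 1.02 CPM at 4 °C. These rest on 87, 261, 15, 8 and 17 counts, and 8 counts have an exact Poisson 95% interval of 3.45 to 15.8. The level in 30 °C replicate 2 was 4.63 times the next highest, and 30 °C replicate 3 again fell between the tumours at 4 °C. The log2 fold change was −3.64 (95% interval −7.48 to 0.20, adjusted p = 0.74 by edgeR) and −1.91 without 30 °C replicate 2. The acinar list was highest in the same library, and its part in the Chac1 value was not tested beyond that fit and the acinar covariate, which gave −2.50. Slc7a11, the subunit of the cystine and glutamate exchanger that brings in cystine, went its own way, with 10.8, 17.0 and 18.1 CPM at 30 °C and 24.5 and 10.4 CPM at 4 °C. The 4 °C tumours were the highest and the lowest of all 5, and the log2 fold change was 0.19 (95% interval −0.80 to 1.18, adjusted p = 0.94 by edgeR). It was 0.66 or −0.55 depending on which tumour at 4 °C was left out.

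**Figure D2:**
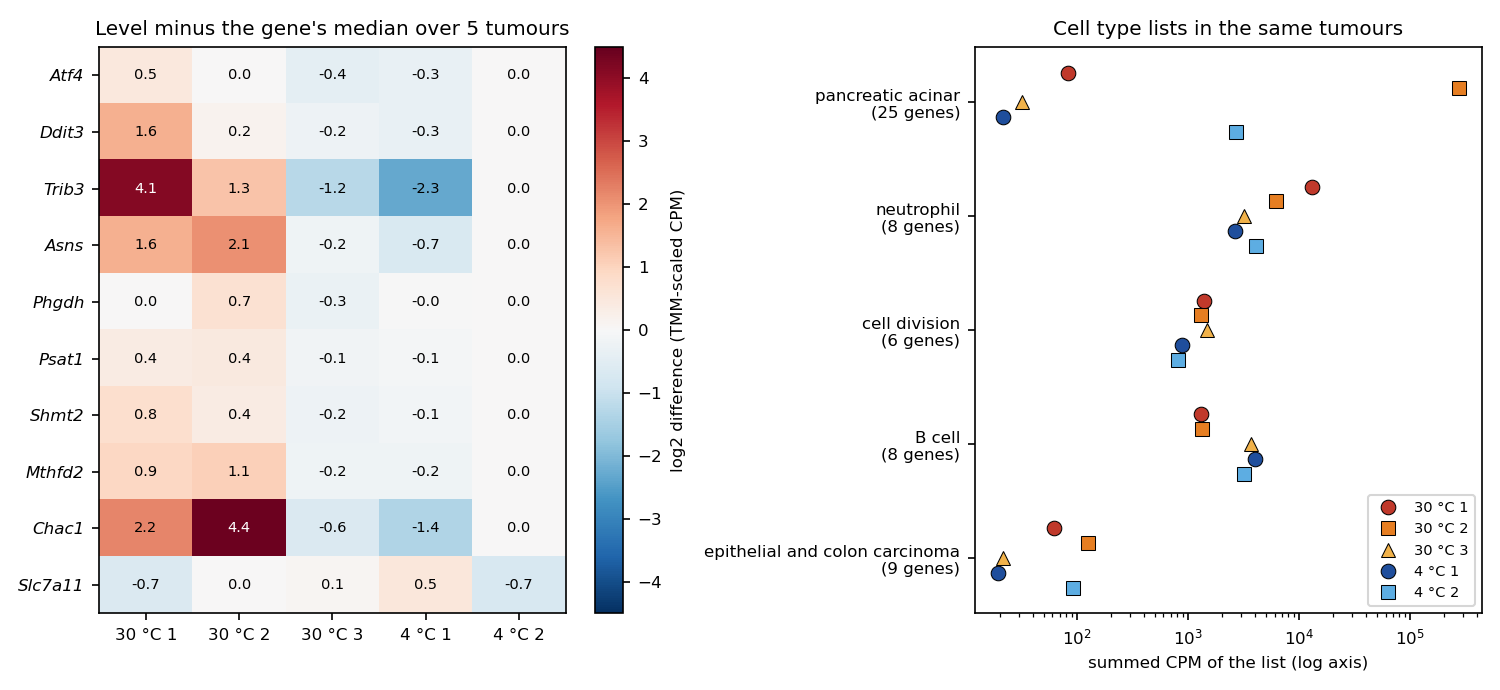
Left, level of each gene minus its own median over the 5 tumours (log2, TMM-scaled CPM, red above and blue below). Right, summed unscaled CPM of 5 cell type lists in the same tumours on a log axis. On these scales 30 °C replicate 1 was highest for Trib3, Ddit3 and the neutrophil list, and 30 °C replicate 2 for Chac1, Asns and the acinar list. In unscaled CPM, Asns was highest in 30 °C replicate 1 (164, against 155 in 30 °C replicate 2).

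The genes furthest above 30 °C replicate 3 were not in the same order in the 2 libraries. In 30 °C replicate 1, relative to 30 °C replicate 3, Trib3 was 41.8 times higher, Chac1 7.07 times, Ddit3 3.55 times, Asns 3.40 times, Mthfd2 2.19 times, Shmt2 1.97 times and Atf4 1.87 times. In 30 °C replicate 2 the order was Chac1 at 32.7 times, Trib3 at 5.81, Asns at 4.70, Mthfd2 at 2.37 and Phgdh at 1.99, with Ddit3 at 1.31. The mean of the 4 °C tumours was 0.916 to 1.43 times the level in 30 °C replicate 3 for all 10 genes. These ratios between single tumours have no replicate check. Other contents differed too. In unscaled CPM, the 8 neutrophil genes summed to 13151 in 30 °C replicate 1, 6139 in 30 °C replicate 2 and 2626 to 4049 in the other 3 tumours. The B cell list was lowest in the same pair (1319 and 1346 CPM, against 3171 to 3984), and the part of these contents in the levels of the 10 genes was not tested.

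Compared per kilobase of merged exons (GENCODE M21), Atf4 was the most abundant, with a median over the tumours of 103 CPM per kilobase and a range (75.6 to 141) above that of every other gene but Asns. Phgdh followed with 43.5 (range 35.2 to 70.1) and Shmt2 with 35.7 (30.6 to 60.3), and these ranges overlapped. Asns had a median of 18.6 CPM per kilobase (11.4 to 77.1), Psat1 15.4 (14.0 to 20.9), Mthfd2 15.2 (13.4 to 31.7) and Ddit3 10.4 (8.24 to 32.0), again with overlapping ranges. Trib3 (1.61), Slc7a11 (1.22) and Chac1 (0.622) were the least abundant by their medians, yet Trib3 reached 28.4 in 30 °C replicate 1 and Chac1 13.1 in 30 °C replicate 2.

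Between the temperatures, 9 of the 10 genes had a negative fitted log2 fold change, with a median of −0.60, while over all 16133 genes 49.3% were negative and the median was 0.01. With edgeR, 0 of the 10 genes had an adjusted p under 0.05, as did 0% of all genes. At an unadjusted p under 0.05, 1 of the 10 passed (Asns, lower at 4 °C), where 6.76% of all genes passed in either direction and 4.17% were lower. At the same threshold 0 of the 10 were lower without 30 °C replicate 1 (3.61% of all genes), 30 °C replicate 2 (2.2%), 4 °C replicate 1 (4.24%) or 4 °C replicate 2 (2.35%). Without 30 °C replicate 3 the count was 4 (Asns, Mthfd2, Chac1 and Shmt2, beside 5.66% of all genes), with DESeq2 it was 4 (Asns, Chac1, Trib3 and Mthfd2, beside 5.33%) and with the replicate number as a block 4 (Asns, Chac1, Mthfd2 and Ddit3, beside 4.06%). The DESeq2 Wald test, which called 0.731% of all genes, also called 0 of the 10. The block, which the labels do not establish as a pairing, called 0.273% of all genes and 2 of the 10, Asns and Chac1. The groups overlapped in all 10 genes, while 23.3% of all genes had groups that did not overlap. The intervals of Atf4, Phgdh, Psat1, Shmt2 and Slc7a11 lay between −1.12 and 1.18, and those of Trib3 and Chac1 were the widest of the 10.

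**Figure D3:**
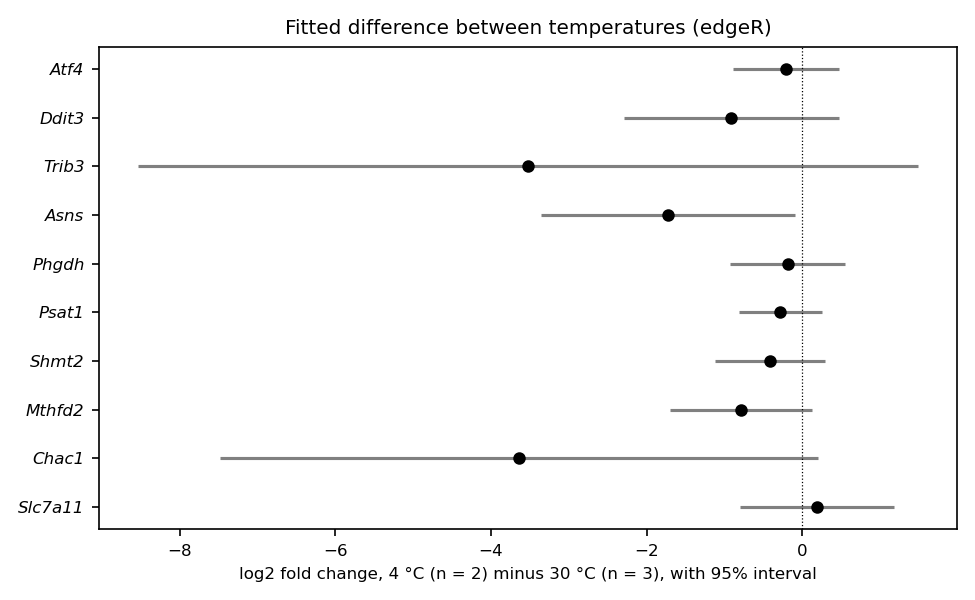
Fitted log2 fold change of each gene, 4 °C (n = 2) minus 30 °C (n = 3), with its 95% interval from edgeR. Of the 10 intervals, 9 include 0, and that of Asns ends at −0.10 before any adjustment.

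Leaving out any single tumour kept 8 to 10 of the 10 genes negative, with medians from −0.86 to −0.25. Without 30 °C replicate 1, 9 genes were negative and the median was −0.25, and without 30 °C replicate 2, 8 genes were negative with a median of −0.50. Without both, 2 of 10 were negative (Asns at −0.13 and Slc7a11 at −0.05) and the median was 0.10, with 0 of the 10 called by edgeR (0.0891% of all genes). That setting was added after seeing the data and leaves out the pair in which 9 of the 10 genes peaked, so it only restates how near 30 °C replicate 3 was to the tumours at 4 °C. The lone tumour at 30 °C is assumed to vary like those at 4 °C. Atf4 turned positive without 30 °C replicate 1 (0.05), and was at −0.05 without 4 °C replicate 1 and −0.40 without 30 °C replicate 3 or 4 °C replicate 2.

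**Figure D4:**
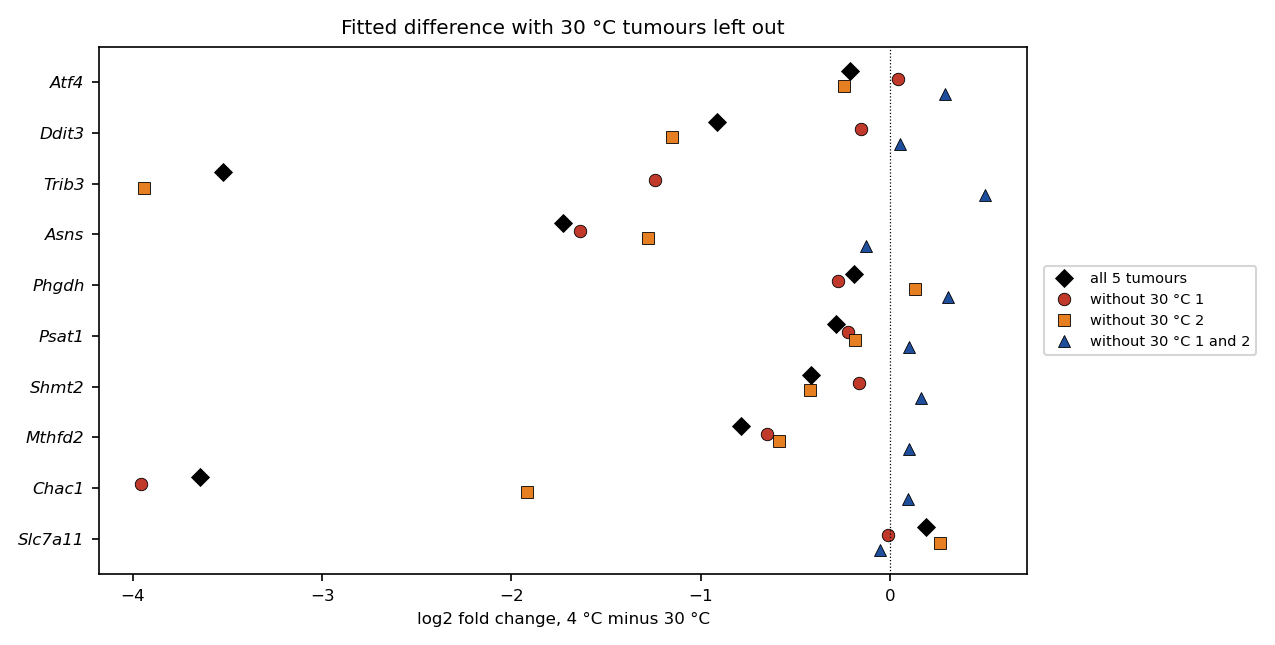
Fitted log2 fold change (x axis) of each gene with all 5 tumours and with 30 °C replicate 1, 30 °C replicate 2 or both left out. With both left out, a choice made after seeing that 9 of the 10 genes peaked there, 8 of the 10 genes lie above 0.

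The wider response was read from 8 lists of 97 genes, of which 94 were tested. As a whole, 83 had a negative log2 fold change, 0 were called by edgeR at an adjusted p under 0.05, and 8 passed an unadjusted p under 0.05, all lower at 4 °C, beside 4.17% of all genes lower at that threshold. After TMM scaling, 77.7% of the 94 genes peaked in 30 °C replicate 1 or 2, beside 38.4% of all genes tested. The groups did not overlap in 18 of the 94, 17 lower at 4 °C, beside 23.3% and 11% of all genes.

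Signalling upstream of Atf4 had the list median nearest to 0. In the list of eIF2 kinases, phosphatase subunits and eIF2B, the median was −0.08 over 14 genes, with 12 negative, −0.17 when either tumour at 4 °C was left out and −0.13 without 30 °C replicate 1. Eif2ak2, the kinase PKR that senses double-stranded RNA, had 41.5, 77.3 and 68.6 CPM at 30 °C and 42.1 and 20.9 CPM at 4 °C (log2 fold change −0.99, adjusted p = 0.72 by edgeR). Eif2ak1, the haem-regulated kinase, had a log2 fold change of −0.48 (adjusted p = 0.76) and Ppp1r15b, the constitutive phosphatase subunit, −0.49 (adjusted p = 0.71), both without overlap between the groups. The stress regulators and secreted factors had a median of −0.48 over 12 tested genes, which was −0.15 without 30 °C replicate 1 and −1.02 without 4 °C replicate 2. Nupr1, a small stress-induced nuclear protein first described in inflamed pancreas, stood at 517 CPM in 30 °C replicate 2 and 8.91 to 43.6 CPM in the others. Sesn2, which restrains mTORC1 when leucine is short, had 47.3 CPM in 30 °C replicate 1 and 24.4 to 28.7 CPM elsewhere, and Eif4ebp1, a translational repressor, had 87.5 and 81.5 CPM in 30 °C replicates 1 and 2 and 34.8 to 57.6 CPM elsewhere.

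The amino acid synthesis list had a median of −0.60 over 10 genes, 8 of them negative. Without 30 °C replicate 2 the median was −0.063 and 5 were negative. Pck2, the mitochondrial PEP carboxykinase, had 147, 181 and 99.0 CPM at 30 °C and 74.3 and 93.6 CPM at 4 °C (log2 fold change −0.76, adjusted p = 0.71 by edgeR), with no overlap. Aldh18a1 (−0.45) and Pycr1 (−1.62), both enzymes of proline synthesis, had adjusted p-values of 0.74 and 0.79 by edgeR. All 8 transporters tested were negative, with a median of −0.41 (−0.26 without 30 °C replicate 1, and −0.62 without 30 °C replicate 3 or 4 °C replicate 2). Slc7a5, a large neutral amino acid transporter subunit, had 248 and 243 CPM in 30 °C replicates 1 and 2 and 84.0 to 97.7 CPM in the other 3 tumours. Slc6a9, a glycine transporter, had a log2 fold change of −1.29 (adjusted p = 0.69 by edgeR) and Slc7a1, the main cationic amino acid transporter, of −0.57 (adjusted p = 0.71 by edgeR).

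All 12 aminoacyl-tRNA synthetases were negative, with log2 fold changes from −0.53 to −0.14 and a median of −0.34. After TMM scaling they peaked in 30 °C replicate 2 in 10 genes and in 30 °C replicate 1 in the other 2. Over all genes tested, 19.5% peaked in 30 °C replicate 2. In unscaled CPM, Wars still peaked in that library. Eprs, Iars and Lars then peaked in 30 °C replicate 3, and the rest of the list in 30 °C replicate 1. Aars, the alanyl-tRNA synthetase, led by p-value with 206, 181 and 130 CPM at 30 °C and 115 and 123 CPM at 4 °C (adjusted p = 0.74 by edgeR), followed by Lars and Eprs. RefSeq windows were matched for 8 of the 12, and 5 of these held the element. Over all 8 lists 14 of 75 matched genes did (18.7%), with 0 in the lists of eIF2 signalling, folate enzymes, endoplasmic reticulum and glutathione.

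**Figure D5:**
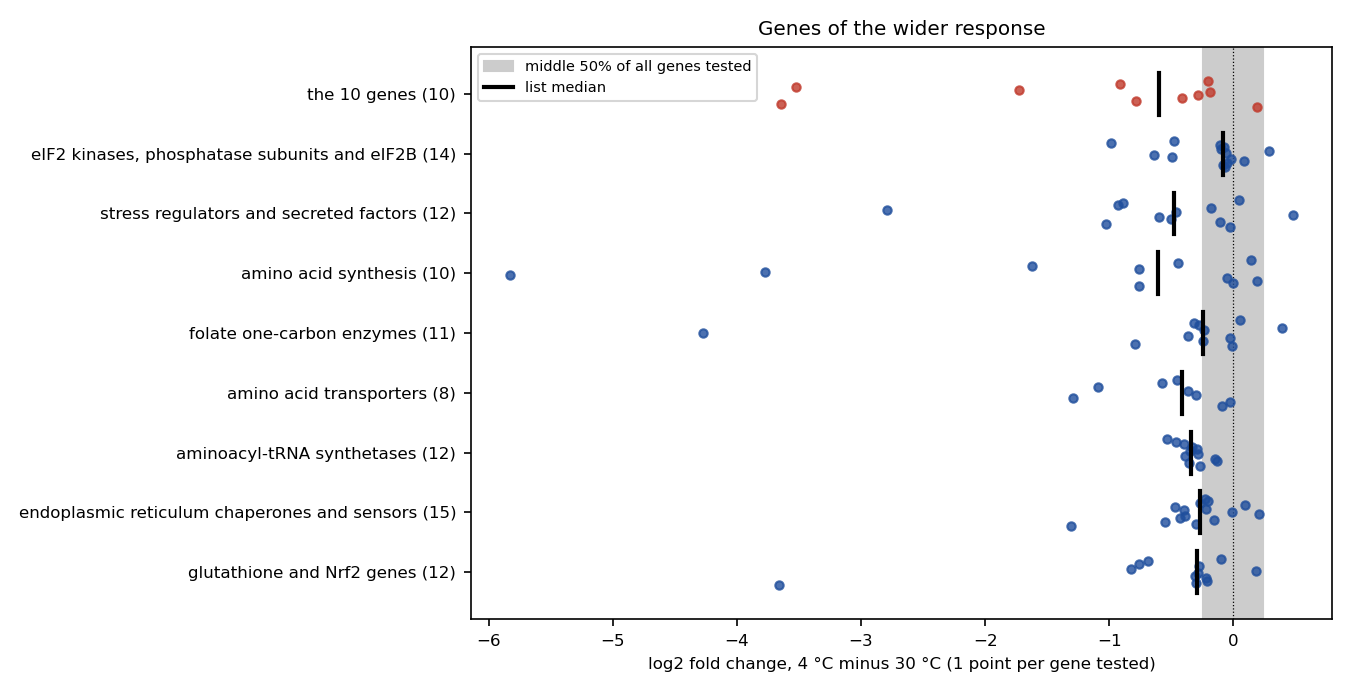
Log2 fold change, 4 °C minus 30 °C, of every tested gene (1 point each, numbers tested in brackets) of the 10 genes and the 8 wider lists, with list medians as black bars and the middle 50% of all genes shaded. The medians lie from −0.60 to −0.08, and no single gene passed an adjusted p of 0.05.

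Folate one-carbon enzymes outside the 10 genes had a median of −0.25 over 11 genes. Mthfd1, the cytosolic counterpart of the mitochondrial pathway, had 141, 140 and 145 CPM at 30 °C and 117 and 111 CPM at 4 °C (log2 fold change −0.32, adjusted p = 0.76 by edgeR). After TMM scaling, and unlike Mthfd2, it had similar levels in all 3 tumours at 30 °C. Sfxn1, a mitochondrial serine transporter, and Mthfd1l behaved alike in this respect, at 86.1 to 90.9 CPM and 70.2 to 75.4 CPM across the 30 °C tumours. In unscaled CPM, 30 °C replicate 2 was instead the lowest of all tumours for Mthfd1 (103), Sfxn1 (63.4) and Mthfd1l (51.7). The chaperones and sensors of the endoplasmic reticulum had a median of −0.27. After TMM scaling they peaked in 30 °C replicate 2 in 11 of 15 genes, beside 19.5% of all genes tested. In unscaled CPM, Dnajc3, Edem1 and Sel1l still peaked in that library and the rest of the list peaked in other libraries. Without 30 °C replicate 2 the median was −0.056, and without 30 °C replicate 3 it was −0.49. Sel1l, part of the degradation complex for misfolded proteins, had 456 CPM in 30 °C replicate 2 and 74.4 to 116 CPM elsewhere. Hyou1 and Ern1 had log2 fold changes of −0.43 and −0.55 (both adjusted p = 0.81 by edgeR).

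The glutathione and Nrf2 genes had a median of −0.29 over 12 genes. After TMM scaling 9 of them peaked in 30 °C replicate 1, beside 18.9% of all genes tested. The median was −0.12 without 30 °C replicate 1, −0.17 without 4 °C replicate 1 and −0.61 without 4 °C replicate 2. Gclc, the catalytic subunit of the enzyme that limits glutathione synthesis, had the smallest p-value of the 8 lists. It stood at 83.7, 95.7 and 78.9 CPM at 30 °C and at 52.0 and 55.1 CPM at 4 °C, with a log2 fold change of −0.68 (unadjusted p = 0.0063, adjusted p = 0.69 by edgeR). Here 30 °C replicate 3 was with its own group. Gclm, the modifier subunit, had a log2 fold change of −0.76 (adjusted p = 0.71 by edgeR) and Gsr, glutathione reductase, of −0.83 (adjusted p = 0.75 by edgeR), with overlap between the groups in Gsr. Named after their values were seen, Cbs, Cth, Aldh1l2 and Ggt1 had the widest ranges of the tested list genes, 60.1-fold to 305-fold, all with their peak in 30 °C replicate 2. Cbs had 81.1 CPM in 30 °C replicate 2 and 0.266 to 0.659 CPM elsewhere, and Aldh1l2 had 40.4 CPM there and 0.319 to 0.959 CPM elsewhere. These peaks coincided with the acinar peak, whose part in them was not tested.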

How the data were processed

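RNA from 3 tumours at 30 °C and 2 at 4 °C was sequenced from TruSeq libraries. The authors deposited raw counts per gene symbol. Their methods name featureCounts on Gencode vM19, and the submitters' processing notes name fastp, HISAT, RSEM and GRCm38. Strand and multi-mapping settings are not given in the sources used here. Unnamed entries (333, 0.0101% to 0.0170% of counts) were left out, and of 97 repeated symbols the most abundant entry kept the name. A second Ddit3 entry had 0 counts. No column was left unused.

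Counts were filtered (filterByExpr), TMM-scaled and compared in R 4.3.3 with the quasi-likelihood test of edgeR 4.0.16 (robust, no covariate), adjusted by Benjamini-Hochberg over 16133 genes and called under 0.05. This replaced the DESeq2 test of the study's methods, which was run as an alternative (DESeq2 1.42.0). Standard errors were the log2 fold change over the root of F, and 95% intervals used the total degrees of freedom. The fit was checked on simulated counts. Coordinates and exon lengths come from GENCODE M21 (GRCm38).

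All 10 genes are named, and in each wider list the 3 tested genes with the smallest p. Members and lists were chosen with earlier results of these data known. Alternatives were RLE and upper-quartile scaling, other filters, no robust estimation, the replicate block, each tumour left out, and acinar genes removed or as a covariate.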

Additional observations from a re-analysis of the deposited data

How the results depend on the processing

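With 0 genes called over all genes by edgeR, DESeq2 called 118, the replicate block 44, an unadjusted threshold 1090 and the fit without 30 °C replicates 1 and 2 (added after seeing the data) 15, while the other alternatives called 0. The 10 stress genes called numbered 2 with the replicate block (Asns at −2.17 and Chac1 at −3.98) and 1 at the unadjusted threshold (Asns, −1.73), and 0 otherwise. Deviations of same-numbered tumours correlated at −0.27 and 0.25 across genes, and those of crossed numbers at 0.27 and −0.25. With 2 tumours at 4 °C, their deviations mirror each other, so these values are not separate checks and do not decide the pairing. The numbers pair only replicates 1 and 2 and the labels give them no meaning, so the block was not taken as a pairing. It leaves 30 °C replicate 3 without a partner, and the cause of its calls was not tested. With each tumour left out, 8 to 10 of the 10 genes were negative and their median was −0.86 to −0.25. Without 30 °C replicates 1 and 2 it reversed to 0.10, with 2 genes negative, though this pair was left out because 9 of the 10 genes peaked there. Reversed values there were Atf4 0.29, Ddit3 0.054, Trib3 0.50, Phgdh 0.31, Psat1 0.10, Shmt2 0.17, Mthfd2 0.10, Chac1 0.10 and Slc7a11 −0.052, and the medians of the stress regulators (0.29) and amino acid synthesis (0.044). With single omissions Atf4 ranged from −0.40 to 0.045 (reversed without 30 °C replicate 1), Phgdh from −0.38 to 0.13 (without 30 °C replicate 2) and Slc7a11 from −0.55 (without 4 °C replicate 1) to 0.66, with −0.0091 without 30 °C replicate 1. RLE and upper-quartile scaling turned no sign among the 10 genes. Chac1 was not tested when 10 counts were required in every tumour. With 1 tumour left in a group, it was assumed to vary like the other group. Depth limits Chac1 and Trib3, with 8 and 14 counts at the lowest.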

Other observations

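Close relatives of the 10 genes, chosen after the values had been seen, gave the following values. Trib1 had 22.4, 14.5 and 18.6 CPM at 30 °C and 16.5 and 19.4 CPM at 4 °C, a 1.54-fold range beside 86.6-fold for Trib3. Trib2 had 27.8, 25.9 and 31.9 CPM at 30 °C and 36.8 and 38.8 CPM at 4 °C, a log2 fold change of 0.40 (adjusted p = 0.75 by edgeR). The cytosolic Shmt1 stayed between 15.5 and 20.2 CPM in all 5 tumours. Chac2, a relative of Chac1, had 36.5 and 35.2 CPM in 30 °C replicates 1 and 2 and at most 25.9 CPM in the other 3. In unscaled CPM, Chac2 had 39.2 in 30 °C replicate 1, 25.9 in 30 °C replicate 2 and 26.7 in 4 °C replicate 2.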
